A study of Bos taurus with 6 samples.

Results

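The insulin-like growth factor (IGF) axis was described in bovine fetal fibroblasts (bEFs) through 10 genes, which are 10 of the 17663 genes in the expression table. They are the binding protein genes IGFBP2 to IGFBP7, the ligand genes IGF1 and IGF2 and the receptor genes IGF1R and IGF2R. These genes were selected by name, with their levels in transgenic and wild-type cells already known, so their difference between the groups is given as a description, with no p-value for any of them. FT cells were bEFs of 3 fetuses that carried the fat-1 transgene, a Caenorhabditis elegans gene for a desaturase that turns n-6 into n-3 fatty acids. WT cells were bEFs of 3 wild-type Luxi fetuses without it. Fetuses of both groups were 50 to 60 days old, and the cells were primary cultures of what remained of the body once head, limbs, organs and bones were taken away, kept in the same serum-containing medium. The promoter that drives fat-1, the breed of the FT fetuses and the passage number are not given in the sources used here. The poly(A) libraries carry the names that the paper gives to the fetuses, FT_1 to FT_3 and WT_1 to WT_3. Each library was therefore taken as 1 fetus, although the sample titles give only replicate numbers. Total counts lay between 48167642 in FT_2 and 69777641 in WT_1.

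IGF1 and IGF2 are small secreted peptides that drive growth of the fetus, and IGF2 is expressed mainly from the paternal allele. Both act through the tyrosine kinase receptor IGF1R, which signals to the PI3K and AKT pathway, whereas IGF2R takes up IGF2 and delivers it to lysosomes. The binding proteins hold the ligands outside the cell, where they can block or prolong their action, and proteases release the ligands again. Fibroblasts and other mesenchymal cells are known sources of several of these proteins.

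FT_1 stood apart from the other FT libraries. In FT_1, 18.9% of the tested genes lay more than 2-fold above or below both other libraries of its group, whereas the share was 2.08% in FT_2 and 2.41% in FT_3. In WT cells this share was between 1.45% and 2.11%. The fold changes of the IGF axis genes and the counts of called genes are therefore also given without FT_1.

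The cells were checked against marker genes. The 10 fibroblast markers were all measured, and their summed FPKM (fragments scaled to gene length and library size) was lowest in FT_1, at 6828, with 17047 in FT_2 and 16783 in FT_3. In WT cells the sum was 17821, 17272 and 17359.8. Vimentin (VIM) was the most abundant of them over the 6 libraries, and its FPKM was lowest in FT_1 at 1244, with 3850.19 and 4171 in the other FT libraries and 7312 to 8178 in WT cells. Decorin (DCN) exceeded it in FT_1 and FT_2. The like sums of FT_2, FT_3 and the WT libraries held genes that differed in opposite directions, since without FT_1 VIM was called lower and DCN, LUM, PDGFRB and COL1A1 higher in FT cells. The 7 epithelial markers summed to 438 in FT_1, to 12.8 and 11.9 in the other FT libraries and to between 7.83 and 13.9 in WT cells. The most abundant was the keratin gene KRT5, with an FPKM of 172 in FT_1, 2.57 in FT_2, 1.63 in FT_3 and 0 in every WT library. EPCAM, a defining epithelial marker, had 0.57 in FT_1 and was listed at 0 in the other 5 libraries. The epithelial sum was thus high in FT_1 alone, and in WT cells it came almost wholly from CDH1. By edgeR at an adjusted p under 0.05, none of the 5 tested epithelial genes was called with all libraries. Of all tested genes, 20.1% were called higher and 18.9% lower. Without FT_1, 4 of the epithelial genes (KRT5, KRT8, KRT14 and KRT18) were called higher in FT cells, beside 30.6% of all tested genes. These 4 keratin genes had an FPKM of 0 in every WT library and of 2.57 or less in FT_2 and FT_3, so they passed the filter on low counts through FT cells alone.

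Other marker lists differed between the groups as well. The 6 smooth muscle markers summed to 2987, 4220.3 and 4077 in FT cells and to 1239, 1219.8 and 1356 in WT cells, with ACTA2 the most abundant. By edgeR 5 of the 6 rose, beside 20.1% of all tested genes called higher. Without FT_1 all 6 rose, beside 30.6% of all tested genes, and nothing is read from these counts. Of the mesothelial list, 3 genes had a row, and the sum of their FPKM reached 199.7 in FT_1, with 45.0 and 46.3 in the other FT libraries and 2.32 to 3.48 in WT cells. MSLN made up most of it, while WT1, a defining mesothelial gene, was listed at 0 in FT cells and at 0.05 or less in WT cells. The 5 adipocyte markers summed to 3.46, 11.2 and 12.3 in FT cells and to 143, 131 and 146 in WT cells, where FABP4 made up almost all of it, and ADIPOQ was at 0 in every FT library. The 3 hepatocyte markers with a row summed to 7.64, 22.7 and 20.25 in FT cells and to 130.3, 116 and 137 in WT cells through TTR, while ALB stayed at 0.03 or less. The remaining lists were low in all 6 libraries. The sums reached at most 1.52 for endothelial genes (PECAM1 the most abundant), 2.29 for cartilage (SOX9), 8.06 for immune cells (CD14), 10.2 for skeletal muscle (PAX3) and 14.95 for neural and Schwann cells (S100B). By the edgeR test PDGFRA, DES and MSLN also rose in FT cells, and CD68, TUBB3, ACAN, FABP4 and TTR fell, with or without FT_1. DES had an FPKM of 0.07 or less in WT cells and passed the filter through FT cells alone. LEP was called higher too, but its FPKM of 0.03 in FT_1 was within the WT range, and only FT_2 and FT_3 were high (4.91 and 4.45). MYF5, on the skeletal muscle list with DES, went the other way. Its FPKM was 0.03, 0.59 and 0.61 in FT cells and 1.06 to 1.93 in WT cells. MYF5, PECAM1, CD14, S100B, PPARG and APOA1 were called lower only without FT_1, and PAX3 and MYH11 were called higher only without it. KDR was listed at 0 in all FT libraries, COL2A1 was at 0 in all but FT_1, and CD3E was at 0 in all but WT_3. The part of cell composition in the results on the IGF axis was not tested, and in bulk RNA fewer cells of a kind cannot be told apart from less RNA per cell.

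**Figure D1:**
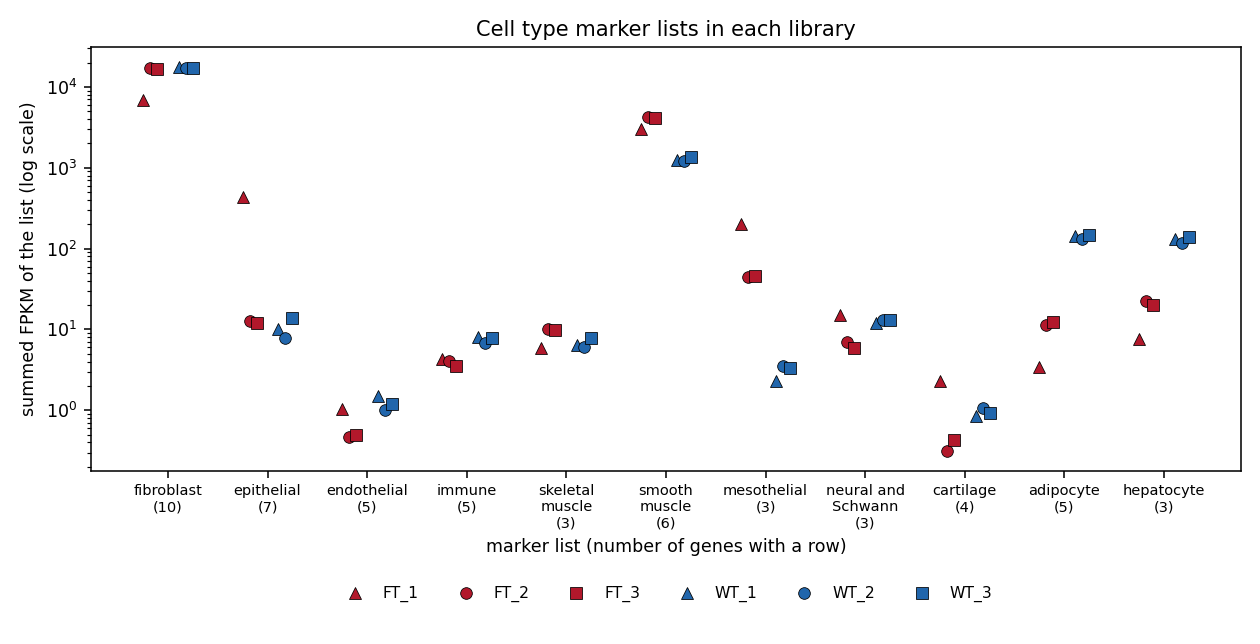
Summed FPKM of each cell type marker list (log scale) in each library, with the number of marker genes that had a row in brackets; red symbols are FT cells and blue symbols WT cells, and the triangle marks replicate 1. FT_1 had the highest epithelial sum (438) and mesothelial sum (199.7) and the lowest fibroblast sum (6828).

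Both ligand genes were higher in FT cells, at low levels. The FPKM of IGF2 (ENSBTAG00000013066, chromosome 29, plus strand, bases 49394907 to 49422468) was 7.48, 7.44 and 4.14 for FT_1 to FT_3, while WT_1 to WT_3 had 0.31, 0.22 and 1.23. The groups did not overlap, and WT_3 was well above the other WT libraries. The group means were 6.35 ± 1.92 for FT and 0.587 ± 0.559 for WT cells (SD, n = 3 each), a ratio of 10.8, and the log2 fold change from edgeR was 3.58 with a standard error of 0.73. It was 3.47 (standard error 0.55) without FT_1 and 4.73 without WT_3. The counts behind these values were 3021, 2278 and 1429 in FT cells and 136, 73 and 425 in WT cells, so the level of IGF2 in WT cells rested on few fragments.

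IGF1 (ENSBTAG00000011082, chromosome 5, minus strand, bases 66191602 to 66264083) had FPKM values of 2.45, 1.82 and 1.0 in FT_1 to FT_3 and of 0.59, 0.50 and 0.64 in WT_1 to WT_3. All FT libraries lay above all WT libraries, FT_3 by the smallest margin. The means were 1.76 ± 0.727 and 0.577 ± 0.0709 (SD, n = 3 each), 3.05 times as high in FT cells. The log2 difference of 1.75 (standard error 0.37) was 1.45 (standard error 0.31) without FT_1. Counts of IGF1 ran from 53 to 86 in WT cells and from 112 to 321 in FT cells. The ratio of IGF2 to IGF1 FPKM was 3.05, 4.09 and 4.14 in the FT libraries. In WT cells it was 0.525, 0.44 and 1.92, so IGF2 was the more abundant ligand transcript in every FT library and in WT_3 only among WT cells.

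The receptor genes differed less. IGF2R (ENSBTAG00000002402, chromosome 9, plus strand, bases 96197493 to 96300017) had an FPKM of 28.4, 29.2 and 32.1 in FT cells against 22.0, 17.4 and 23.1 in WT cells. Every FT library was above every WT library. The means were 29.9 ± 1.93 and 20.8 ± 3.0 (SD, n = 3 each), and the log2 fold change was 0.68 with a standard error of 0.13. IGF1R (ENSBTAG00000021527, chromosome 21, plus strand, bases 7780293 to 8080394) had 33.8, 22.1 and 24.7 in FT cells and 34.0, 31.6 and 38.5 in WT cells. Here the groups overlapped through FT_1, which lay at the level of WT cells while FT_2 and FT_3 were below it. The log2 fold change of IGF1R was -0.21 (standard error 0.17) with all libraries and -0.40 (standard error 0.09) without FT_1. The ratio of IGF1R to IGF2R FPKM was 1.55 to 1.82 in WT cells, while FT_1 had 1.19 and the other FT libraries 0.757 and 0.771. IGF1R was therefore the more abundant receptor transcript in all WT libraries and FT_1, and IGF2R in FT_2 and FT_3.

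Among the binding protein genes, IGFBP2 and IGFBP6 had even levels within each group and the others depended on FT_1 to a varying degree. IGFBP2 (ENSBTAG00000005596, chromosome 2, plus strand, bases 104619851 to 104649017) encodes a binding protein with a preference for IGF2 and had FPKM values of 1052, 1309.5 and 1167 in FT_1, FT_2 and FT_3. Its values in WT cells were 24.5, 25.9 and 29.4. All FT libraries were high and all WT libraries low, with no overlap and a gap far wider than the spread within either group. The means were 1176 ± 129 and 26.6 ± 2.54 (SD, n = 3 each), 44.2 times as high in FT cells. The log2 fold change was 5.63 (standard error 0.16), and it was 5.71 (standard error 0.10) without FT_1.

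IGFBP6 (ENSBTAG00000021467, chromosome 5, minus strand, bases 26878956 to 26883908), which also binds IGF2 in preference to IGF1, went the other way. Its FPKM was 35.9, 37.6 and 32.9 in FT cells and 125, 132 and 136 in WT cells. The 3 FT libraries were alike and all were below the WT libraries. The mean was 35.5 ± 2.35 in FT cells and 131 ± 6.04 in WT cells (SD, n = 3 each), 3.70 times as high in WT cells, and the log2 fold change of -1.73 (standard error 0.09) was -1.72 without FT_1.

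IGFBP5 (ENSBTAG00000054218, chromosome 2, minus strand, bases 104659123 to 104680014), a binding protein that attaches to extracellular matrix, had FPKM values of 189, 1140.0 and 1186 in FT_1, FT_2 and FT_3. The WT values were 149, 147 and 170.45. FT_1 was just above the WT range, while FT_2 and FT_3 were far above it and were on average 6.15 times as high as FT_1. The means were 838 ± 563 and 155 ± 13.1 (SD, n = 3 each), and the log2 fold change was 2.60 (standard error 0.68) with all libraries and 3.07 (standard error 0.08) without FT_1.

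IGFBP4 (ENSBTAG00000008611, chromosome 19, plus strand, bases 40672669 to 40684245), a binding protein known as an inhibitor of IGF action, had an FPKM of 262 in FT_1 and of 937 and 927 in the other FT libraries. In WT cells its FPKM was 261, 251 and 286. FT_1 fell within the WT range, so the groups overlapped, and FT_2 and FT_3 were alike and above it. The means were 709 ± 387 and 266 ± 18.4 (SD, n = 3 each). The log2 fold change was 1.58 (standard error 0.48), and 1.98 (standard error 0.07) without FT_1.

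IGFBP7 (ENSBTAG00000019368, chromosome 6, minus strand, bases 72405716 to 72486115), a secreted relative with low affinity for IGFs, had its highest value in FT_1. FT_1 had an FPKM of 317, FT_2 had 67.7 and FT_3 had 51.5, while the WT libraries had 6.28, 5.41 and 5.84. All FT libraries lay above all WT libraries, and FT_1 was 5.32 times the mean of FT_2 and FT_3. The means were 145 ± 149 and 5.84 ± 0.435 (SD, n = 3 each). The log2 difference was 4.78 (standard error 0.80), and 3.52 (standard error 0.12) without FT_1.

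IGFBP3 (ENSBTAG00000003994, chromosome 4, plus strand, bases 76116349 to 76124835), the main carrier of IGFs in blood, was lower in FT cells, and most of all in FT_1. Its FPKM was 16.1, 160.2 and 164 in FT_1, FT_2 and FT_3 and 244, 214 and 234 in WT cells. The groups did not overlap, but FT_2 and FT_3 were on average 10.1 times as high as FT_1 and far closer to WT cells. The means were 113 ± 84.3 and 231 ± 15.3 (SD, n = 3 each). The log2 fold change was -0.85 with a standard error of 0.77, and -0.34 with a standard error of 0.07 without FT_1. IGFBP3, IGFBP4, IGFBP5 and IGFBP7 were the 4 of the 10 genes in which FT_1 differed more than 2-fold from the mean of FT_2 and FT_3, where 21.1% of 13152 genes did so. The epithelial markers that were high in FT_1 moved with these values, and their part in them was not tested.

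**Figure D2:**
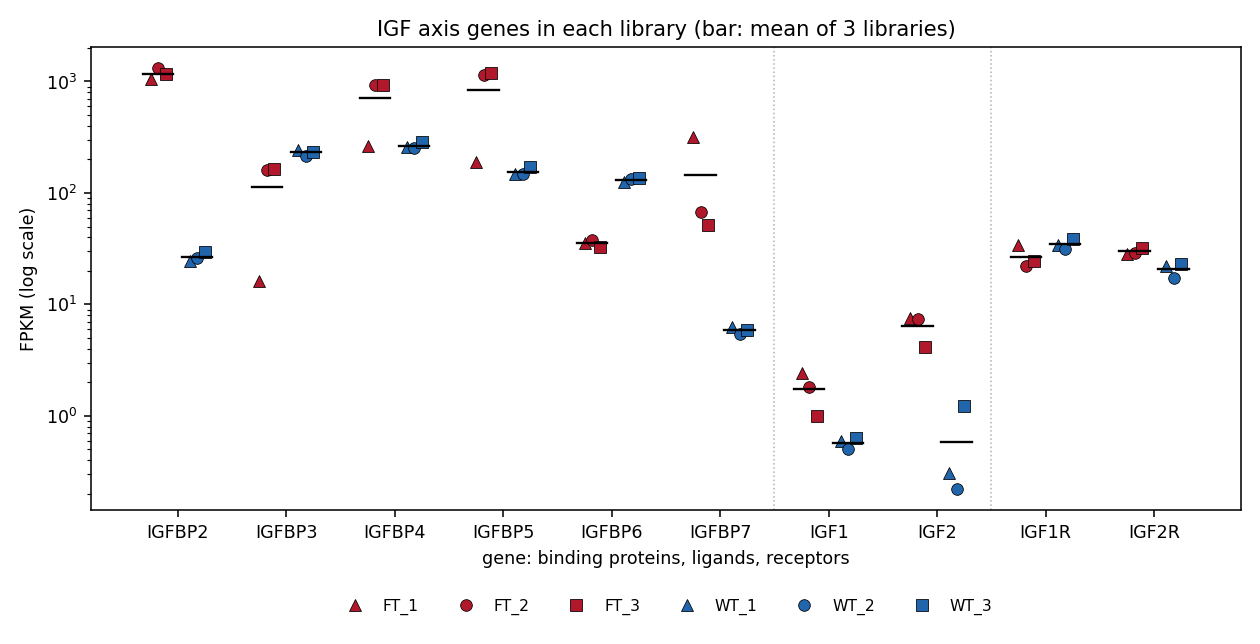
FPKM of the 10 IGF axis genes in each library on a log scale; red symbols are FT cells, blue symbols WT cells, triangles replicate 1, circles replicate 2 and squares replicate 3, and black bars are means of 3 libraries. FT_1 lies away from FT_2 and FT_3 for IGFBP3, IGFBP4, IGFBP5 and IGFBP7, whereas the FT values of IGFBP2 (1052 to 1309.5) and IGFBP6 (32.9 to 37.6) lie close together.

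All 10 genes passed the filter on low counts and entered the fit of 13482 genes. At an adjusted p under 0.05 from edgeR, 7 of them were called higher and 1 lower in FT cells, beside 20.1% of all tested genes called higher and 18.9% called lower. Without FT_1, 7 were called higher and 3 lower, beside 30.6% and 31.5% of 13765 genes. The FPKM values of the groups did not overlap for 6 genes that were higher and 2 that were lower in FT cells, against 21.8% and 36.9% of all tested genes. Since these genes were chosen with the same contrast known, nothing is read from these counts.

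**Figure D3:**
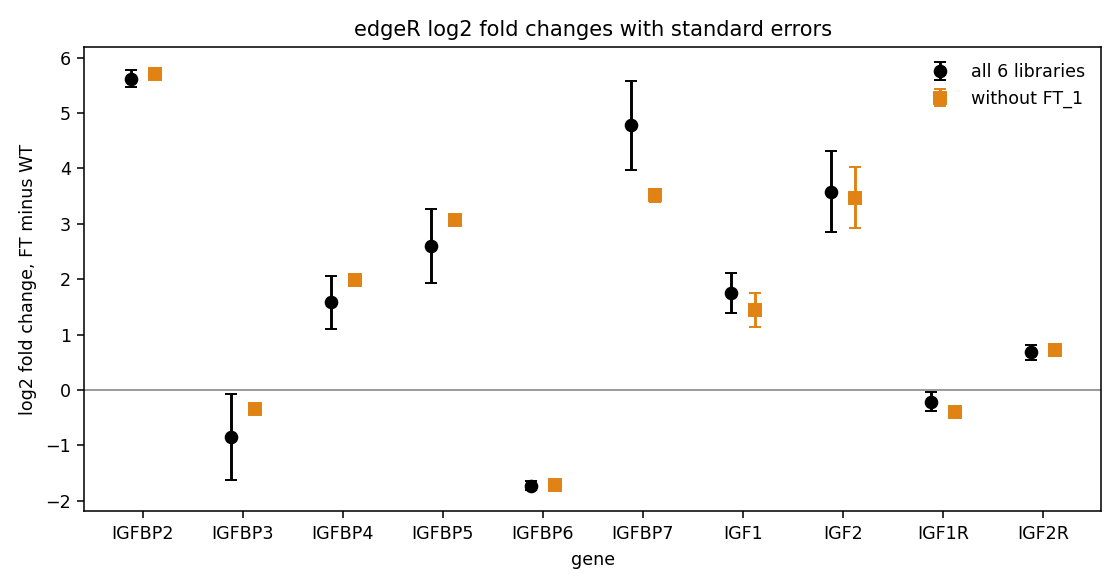
Log2 fold change of FT minus WT cells from edgeR for each IGF axis gene, with all 6 libraries (black circles) and without FT_1 (orange squares); bars are standard errors and the line marks no difference. The standard error of IGFBP3, IGFBP4, IGFBP5 and IGFBP7 was 0.77, 0.48, 0.68 and 0.80 with FT_1 and 0.07, 0.07, 0.08 and 0.12 without it.

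The make-up of the binding protein transcripts differed between the groups. The summed FPKM of IGFBP2 to IGFBP7 was 1872, 3652 and 3528 in the FT libraries and 809, 776 and 862 in the WT libraries. Every FT sum was above every WT sum, and FT_1 had the lowest sum among FT cells. These 6 genes took 0.347%, 0.866% and 0.856% of all counts in FT cells and 0.192% to 0.214% in WT cells. IGFBP2 made up 56.2%, 35.9% and 33.1% of the summed FPKM in FT_1, FT_2 and FT_3, against 3.03% to 3.41% in WT cells. IGFBP3 was 27.1% to 30.2% of the sum in WT cells and 0.858%, 4.39% and 4.65% in the FT libraries. IGFBP6 supplied 15.4% to 17.0% in WT cells and at most 1.92% in FT cells. The share of IGFBP4 was 32.2% to 33.2% in WT cells and somewhat lower in FT cells, at 14.0%, 25.7% and 26.3%. IGFBP5 overlapped between the groups in its share, with 10.1%, 31.2% and 33.6% in FT cells and 18.4% to 19.8% in WT cells, although its level was higher in FT cells. IGFBP7 supplied 16.9% in FT_1 and 1.85% or less in FT_2, FT_3 and the WT libraries. The ratio of the binding protein sum to the ligand sum was 188, 394 and 686 in FT cells and 899, 1077 and 461 in WT cells, and the groups overlapped.

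**Figure D4:**
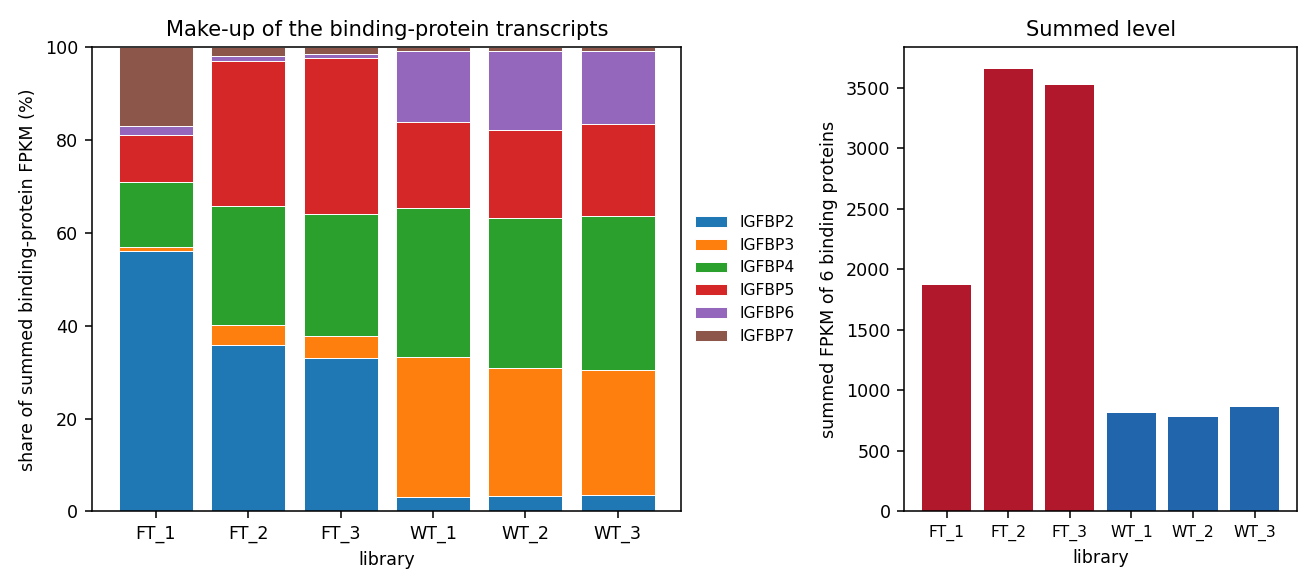
Left, share of each binding protein in the summed FPKM of IGFBP2 to IGFBP7 (percent) in each library; right, the sum itself, with FT cells in red and WT cells in blue. IGFBP2 took 33.1% to 56.2% of the sum in FT cells and 3.03% to 3.41% in WT cells, and the sum was 1872 to 3652 in FT cells and 776 to 862 in WT cells.

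The order of mean FPKM in WT cells was IGFBP4, IGFBP3, IGFBP5, IGFBP6, IGF1R, IGFBP2, IGF2R, IGFBP7, IGF2 and IGF1. Neighbours in this order did not overlap over the 3 libraries, except IGF2 and IGF1. In FT cells the order was IGFBP2, IGFBP5, IGFBP4, IGFBP7, IGFBP3, IGFBP6, IGF2R, IGF1R, IGF2 and IGF1. There the values of neighbours overlapped from IGFBP2 down to IGFBP6, and again for IGF2R and IGF1R. Without FT_1, IGFBP3 came before IGFBP7, and only IGFBP2 and IGFBP5 still overlapped. IGFBP1, the remaining classical binding protein, was not among the 10 genes and had too few counts to be tested, with an FPKM of 0.10 or less and 12 counts or fewer in every library.

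Some features were shared beyond expression. IGFBP2 and IGFBP5 lie on opposite strands of chromosome 2 with their 3' ends facing each other and 10105 bases between them. Their values did not run in parallel, since FT_1 was slightly below the other FT libraries for IGFBP2 and far below them for IGFBP5. IGFBP3 and IGFBP1 are neighbours on chromosome 4 in the same arrangement, 6451 bases apart, and IGFBP3 was abundant where IGFBP1 was barely detected. No gene of the axis overlapped another gene in the table. By the GO terms of the table, IGFBP2 to IGFBP6 carried binding of both IGF-I and IGF-II, IGF1R that of IGF-I and IGF2R that of IGF-II. IGFBP7 carried the general IGF binding term only, and fibronectin binding was listed for IGFBP3, IGFBP5 and IGFBP6.

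The genes most like each member were taken as those with the smallest root mean square difference of centred log2(FPKM + 1) values over the 6 libraries, among 10365 genes. For IGFBP2 these were CRABP1 (0.45), ACTG2 (0.52) and MIR22 (0.77). CRABP1, whose product binds retinoic acid, lay between 139 and 304 FPKM in FT cells and between 2.69 and 3.84 in WT cells. IGFBP7 was most like MSLN (0.32), FN1 (0.33) and ALDH1A1 (0.46), and IGFBP5 most like SPON1 (0.10), STAC2 (0.11) and FBLN1 (0.22). IGFBP4 came closest to HCRTR1 (0.08), HSD11B1 (0.11) and HOXC10 (0.11). IGFBP3 had MMP19 (0.16), NDNF (0.18) and PLAC9 (0.20) nearest to it, and IGFBP6 had MCUB (0.09) and NDUFB3 (0.10) among those nearest to it. For the ligands they were COL11A1 (0.27), PODNL1 (0.30) and SCG5 (0.31) with IGF2, and TMEM11, CNNM4 and DPAGT1 (0.08 to 0.09) with IGF1. The receptors were nearest to TTC38, TMEM267 and SMG6 for IGF1R and to SIDT2, MAP1S and HSF4 for IGF2R, all at 0.04 to 0.05. Among the 10 genes themselves, the closest pairs were IGF1 with IGF2R (0.32), IGFBP4 with IGFBP5 (0.49) and IGF1R with IGF2R (0.49). IGFBP4 and IGFBP5 shared low values in FT_1, whereas the log2 fold changes of IGF1R and IGF2R had opposite signs (-0.21 and 0.68), so a value of this size does not show a shared pattern. These differences of log2 values describe 6 libraries, FT_1 included, and carry no test. The pseudocount of 1 shrinks the differences of genes with a low FPKM, such as IGF1, HCRTR1 and HOXC10, so a small value does not mean an equal fold change.

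Of the other genes of the pathway, 60 of 64 had a row and 57 were tested. At an adjusted p under 0.05 in edgeR's quasi-likelihood test over all genes, 22 rose (38.6%), 8 fell (14.0%) and 27 did not pass, beside 20.1% and 18.9% of all tested genes. The lists were chosen with earlier results known and nothing particular to them is read from these shares, nor from the counts of single lists that follow. The median log2 fold change of the 57 genes was 0.34, beside 0.03 over all 13482 genes. These counts depended on single libraries. Without FT_1, 30 rose and 15 fell of 58 tested, 51.7% and 25.9%, beside 30.6% and 31.5% of all genes. Without FT_3, WT_1, WT_2 and WT_3 in turn, 14, 13, 10 and 11 rose, beside 2151, 1516, 1613 and 1796 over all genes. Without FT_2, WT_1, WT_2 and WT_3 in turn, 4, 3, 3 and 4 fell, beside 1963, 1531, 1570 and 1741 over all genes. With all libraries 2714 genes rose and 2547 fell, so calls were lost over all genes as well. Scaling mattered too, since 13 rose when libraries were scaled by their totals alone, beside 2049 over all genes. Of the 25 genes named from these lists, 12 kept their call under each of the 13 alternatives that used an adjusted p under 0.05. The study's threshold, an unadjusted p under 0.05 with a log2 fold change beyond 1, was counted over whole lists and is not among these 13. ADAM9, STC2, IGF2BP2, CTCF, SOS1 and IRS2 lost theirs both with library totals alone and with limma on FPKM. With no filter on low counts ADAM12, STC2, IGF2BP2 and IRS2 were no longer called, at adjusted p values of 0.0516 to 0.0558.

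The IGFBP-domain relatives are secreted or membrane proteins that share the amino-terminal fold of the binding proteins. Of 9 tested, 5 rose, 1 fell and 3 did not pass, with a median log2 fold change of 1.02. Without FT_1, 6 rose and 3 fell. CCN3 had an FPKM of 419, 488 and 462 in FT cells and 79.1, 77.5 and 96.0 in WT cells. Its libraries were even within each group and did not overlap. On the log2 scale CCN3 was up by 2.60 (standard error 0.14, edgeR adjusted p = 5.23e-04). CRIM1, a transmembrane regulator of BMP signals, rose by 1.07 log2 units (standard error 0.12, adjusted p = 0.00179), and CCN5 by 1.02 log2 units (standard error 0.17, adjusted p = 0.00572). These 3 genes kept their call under the 13 alternatives. CCN1, a matrix protein of the same family, rose by 1.33 log2 units (adjusted p = 0.0263), from FPKM values of 102, 229 and 248 in WT cells to 385, 481 and 436 in FT cells. It lost the call without FT_2, FT_3 or WT_2, at an adjusted p of up to 0.0718. KAZALD1 fell by 2.18 log2 units (adjusted p = 0.0284), with FPKM values of 0.45, 2.05 and 2.27 in FT cells and 7.91 to 8.44 in WT cells. FT_1 was again the lowest, and without it KAZALD1 had a log2 fold change of -1.73. The call of KAZALD1 was lost without FT_2 or any WT library, at an adjusted p of up to 0.084.

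Proteases of the binding proteins and their inhibitors gave 2 rises and 1 fall among 7 tested, and 2 of each without FT_1. STC2 encodes stanniocalcin-2, an inhibitor of the protease PAPP-A that cuts IGFBP4. FT_1 had an FPKM of 36.8, FT_2 had 1.96 and FT_3 had 2.65, and the WT libraries had 0.86, 0.62 and 1.22. All FT libraries were above the WT libraries, but FT_1 carried most of the difference. The log2 fold change of STC2 was 4.07 (standard error 1.27, edgeR adjusted p = 0.0475), and without FT_1 it was 1.53 (adjusted p = 0.00145). The metalloprotease genes ADAM9 (log2 fold change 0.34, adjusted p = 0.0247) and ADAM12 (-0.61, adjusted p = 0.0459) moved in opposite directions, and each lost its call without FT_3 or any of the WT libraries, with adjusted p values up to 0.0931 and 0.147. ADAM12 lost it without FT_2 as well. The call of STC2 was lost without any of the WT libraries, at an adjusted p of up to 0.157. PAPPA and PAPPA2, the proteases themselves, had an FPKM of 0.39 or less in every library and were not called. HTRA1, another gene of this list, was abundant, with an FPKM of 678, 228 and 209.5 in FT_1, FT_2 and FT_3. Its FPKM was 573 to 631 in WT cells. HTRA1 was not called with all libraries, and without FT_1 it was called lower (log2 fold change -1.29, edgeR adjusted p = 3.64e-07).

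Among other binding partners and receptors, 1 of 3 tested rose and 1 fell, and without FT_1 2 of 4 rose and 1 fell. The insulin receptor gene INSR had an FPKM of 2.90, 2.78 and 2.84 in FT cells and 1.98, 2.18 and 2.22 in WT cells. The groups did not overlap, and the log2 rise of INSR was 0.58 (standard error 0.10, edgeR adjusted p = 0.00817) with its call kept under the 13 alternatives. M6PR, the cation-dependent mannose 6-phosphate receptor, which sorts lysosomal enzymes as IGF2R does, fell by 0.34 log2 units (standard error 0.09, adjusted p = 0.0257). Its call was lost with any library but FT_1 left out, at an adjusted p of up to 0.0978.

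Regulators and partners of the ligand transcripts gave 2 rises and 1 fall among 8 tested. Of the 2 tested IGF2 mRNA-binding protein genes, IGF2BP2 rose by 0.77 log2 units (edgeR adjusted p = 0.042), a call lost without FT_3 or any WT library (adjusted p up to 0.131). Its FPKM was highest in FT_1 (23.6, against 12.2 and 15.55 in the other FT libraries), and without FT_1 it rose by 0.49 log2 units. Of 6 upstream regulators, STAT5A, a transcription factor activated by the growth hormone receptor, fell by 0.49 log2 units (standard error 0.07, adjusted p = 0.00346) and kept its call under the 13 alternatives. CTCF, which binds the imprinting control region between IGF2 and H19, rose by 0.28 log2 units (adjusted p = 0.0287), and this call too was lost without FT_3 or any WT library (adjusted p up to 0.12). The other 4 did not pass. Without FT_1, 1 mRNA-binding protein gene rose and 1 fell, and 1 upstream regulator rose and 2 fell.

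Receptor adaptors and feedback genes gave 4 rises and 2 falls among 10 tested, and 6 and 2 without FT_1. SOCS2, a feedback inhibitor of growth hormone signalling, had an FPKM of 3.67, 2.66 and 4.37 in FT cells and 13.5, 11.85 and 11.5 in WT cells. All FT values were below the WT values, and SOCS2 fell by 1.62 log2 units (standard error 0.20, edgeR adjusted p = 0.00232). GRB10, an adaptor that restrains the insulin and IGF1 receptors, rose by 0.83 log2 units (standard error 0.11, adjusted p = 0.00272). Both kept their call under the 13 alternatives. The receptor substrate genes IRS1 (log2 fold change 1.06, adjusted p = 0.0146) and IRS2 (1.33, adjusted p = 0.0451) were called higher, and IRS2 had 1.65 without FT_1. IRS1 lost the call without WT_2 or WT_3 (adjusted p up to 0.0634) and IRS2 without any library other than FT_1 (up to 0.147). SOS1 (log2 fold change 0.42, adjusted p = 0.0266) and SHC1 (-0.43, adjusted p = 0.0256) link receptors to RAS. Their calls were lost without FT_2 or any WT library, and that of SOS1 also without FT_3, at adjusted p values of up to 0.0806 and 0.0869.

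In the PI3K, AKT and mTOR arm, 8 of 20 tested genes rose, 2 fell and 10 did not pass, and without FT_1 12 rose and 4 fell. FOXO3, a transcription factor held back by AKT, was at an FPKM of 7.06, 7.23 and 8.13 in FT cells and of 2.86, 2.70 and 3.28 in WT cells. The 3 FT libraries were even and above all WT libraries, and FOXO3 rose by 1.5 log2 units (standard error 0.14, edgeR adjusted p = 0.00115). PDPK1, the kinase that activates AKT, rose by 1.05 log2 units (standard error 0.14, adjusted p = 0.00332) and AKT2 by 0.70 (standard error 0.07, adjusted p = 0.00162). EIF4EBP1, a translation repressor that mTOR inactivates, rose by 0.88 log2 units (standard error 0.08, adjusted p = 0.00119). The kinase gene GSK3B, whose product AKT inhibits, fell by 0.44 log2 units (standard error 0.07, adjusted p = 0.00562). PIK3CA, a catalytic subunit of PI3K, fell by 0.36 log2 units (standard error 0.08, adjusted p = 0.0135). Its log2 fold change stayed negative in every alternative, but its call was lost without WT_1 or WT_2 (adjusted p up to 0.0615). The other 5 genes named here kept their calls under the 13 alternatives. The list holds activators and inhibitors of the pathway, and genes of both kinds were among those that rose.

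**Figure D5:**
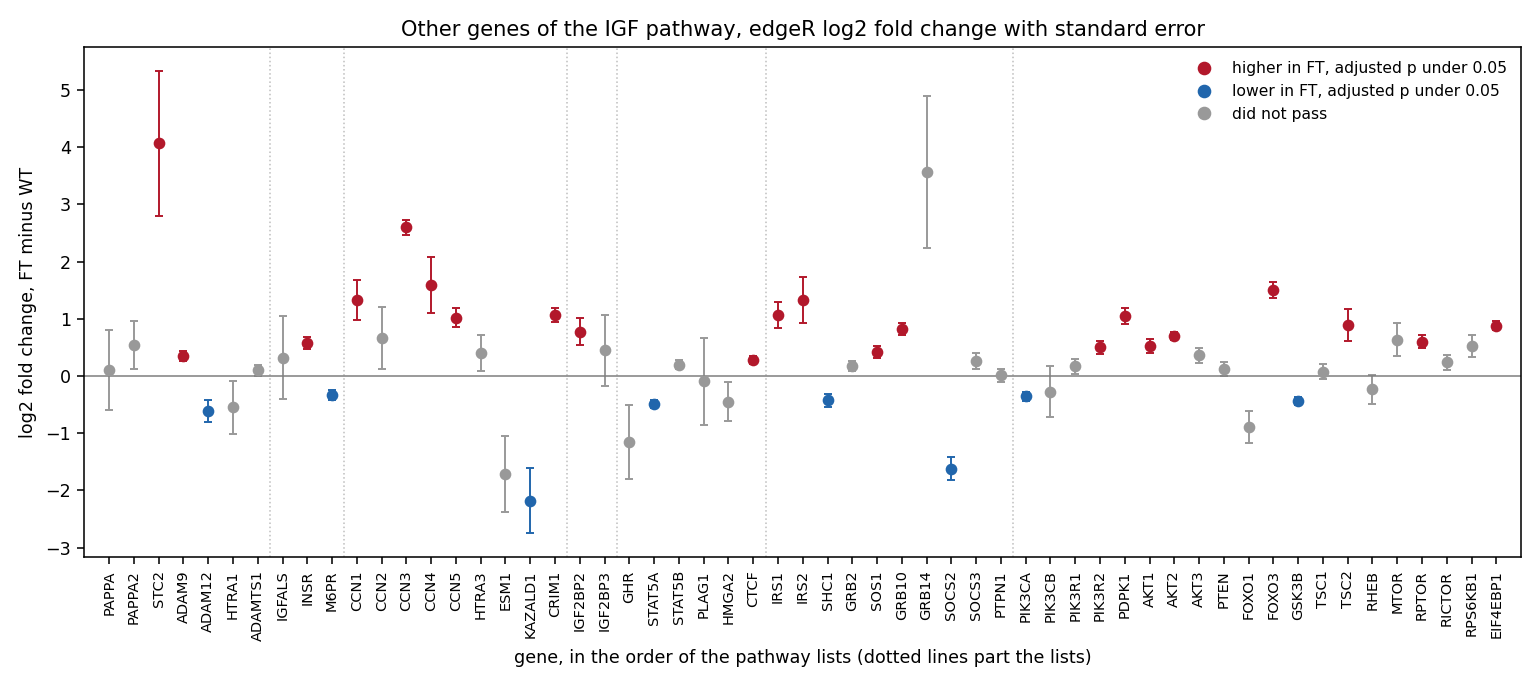
Log2 fold change of FT minus WT cells from edgeR, with standard errors, for the 57 tested pathway genes in the order of the lists (proteases and their inhibitors, other partners and receptors, IGFBP-domain relatives, IGF2 mRNA-binding proteins, upstream regulators, adaptors and feedback, PI3K, AKT and mTOR arm); red rose, blue fell and grey did not pass at an adjusted p under 0.05. CCN3 at 2.60 and FOXO3 at 1.5 have short error bars, whereas that of STC2 at 4.07 is wide (standard error 1.27).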

How the data were processed

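RNA was sequenced from bEFs of 3 FT and 3 WT fetuses. The authors mapped reads with HISAT, assembled transcripts and took expression levels from StringTie and edgeR. The submitters' processing notes name HISAT2 2.0, StringTie 1.3.0 and Bowtie 0.12.2, and a mouse genome build that the cattle coordinates cannot come from, so the cattle build is not given in the sources used here. The raw counts per gene and the FPKM values were deposited by the authors in the same table. How reads were assigned by strand or between close paralogs is not given in the sources used here.

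The counts were tested with edgeR 4.0.16 in R 4.3.3 (quasi-likelihood test, TMM scaling, filterByExpr, no covariate), and genes were called at a Benjamini-Hochberg adjusted p under 0.05 over all tested genes. FPKM served for levels. Each library was taken as 1 fetus from its name, and on that reading the p-values measure the spread between fetuses. Libraries of a group differed beyond sampling noise. The mean chi-square per gene was 11.7 between FT_2 and FT_3 and 20.2 to 36.1 among WT libraries. Between FT_1 and the other FT libraries it was 763 and 822. The IGF axis genes and the pathway lists were chosen with earlier results of these data known. Named genes were the IGF axis genes, up to 4 called genes with the smallest p per list and direction, the 3 genes most like each member (FPKM mean of at least 1, pseudocount 1; 1 of them is not reported here), and the most abundant or absent markers. PAPPA, PAPPA2, HTRA1, IGFBP1, CDH1, KRT8, KRT14, KRT18, PDGFRA, DES, MYF5, MYH11, LEP, PPARG, APOA1, CD68, TUBB3, ACAN, DCN, LUM, PDGFRB and COL1A1 were named after their values were seen. Alternatives used DESeq2 1.42.0, limma 3.58.1 on log2 FPKM, other scalings, no filter, a replicate block, the study's threshold and each library left out. The fit was also run on simulated counts with the same dispersion for all genes and no library apart as FT_1 was. No result rests on that run. The pathway genes ADAM28, CCN6, IGFBPL1 and IGF2BP1 and the markers TIE1, PTPRC, MYOD1, MYOG, PAX7, LRRN4, SOX10, AFP and SERPINA1 were not analysed here.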

Additional observations from a re-analysis of the deposited data

How the results depend on the processing

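The log2 fold changes of the 10 IGF axis genes kept their sign in each of the 13 alternatives. Single libraries moved their size, such as IGFBP7 from 4.78 to 3.52 without FT_1 and IGF2 from 3.58 to 4.73 without WT_3. With the alternatives that kept all libraries, 66 of 70 values stayed within the spread between replicates, and the exceptions were IGFBP6 at -1.88 with library totals alone and at -1.86 and -1.88 with limma on log2(FPKM + 1) and log2(FPKM + 0.1), and IGF1 at 0.77 with limma on log2(FPKM + 1). This spread was wide for some genes (1.95 for IGFBP3 and 1.38 for IGF2), so values within it could still move by much. IGFBP3 went from -0.85 to -1.33 with the replicate block and to -1.59 and -1.62 with limma. IGF2 went from 3.58 to 2.23 with limma on log2(FPKM + 1). IGF1R went from -0.21 to -0.36 with library totals alone and to -0.38 and -0.39 with limma. Leaving out 1 library gave 1516 to 4215 genes higher and 1531 to 4337 lower over all genes, and 10 to 30 higher and 3 to 15 lower among the pathway genes. The highest of each came without FT_1 and the lowest without a WT library. The study's threshold (a log2 fold change beyond 1 at an unadjusted p under 0.05) gave 1378 higher and 1208 lower, and 11 and 3 among pathway genes. Pathway genes called higher numbered 13 with library totals alone and 13 with limma at either pseudocount, against 22. Over all genes 2049, 1837 and 1880 were called higher with these 3 settings, against 2714. These settings moved the median log2 fold change of all genes by -0.15, -0.16 and -0.19, and the share of higher genes among those called from 51.6% to 37.6%, 34.0% and 34.8%. The TMM factors, which scaling by library totals alone leaves out, were 0.9344 to 0.9682 for FT and 1.05 to 1.056 for WT libraries. The cause of the shifts was not tested.

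The deviations of same-numbered libraries from their group means correlated at -0.00103, -0.0198 and 0.0184, and not every library correlated best with its own number. This gave no sign that replicate numbers pair the samples. It could not exclude pairing, because the distance of FT_1 from FT_2 and FT_3 dominated the deviations in FT cells. With the replicate block 1838 genes were called higher and 1741 lower, and 13 pathway genes higher and 6 lower. Of the 25 named pathway genes, 9 lost their call with this block. They were ADAM9, STC2, IGF2BP2, CTCF, SOS1, IRS2, M6PR, SHC1 and PIK3CA. Named pathway genes lost their call in 50 of 150 values with 1 library left out and in 31 of 174 others, and none changed direction. Low counts of IGF1 and IGF2 in WT cells limit their ratios.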
